A study of Canis lupus familiaris with 16 samples.

Results

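The 6 genes described here, COL8A1, COL16A1, THBS1, FBLN2, TINAGL1 and CILP2, encode proteins of the extracellular matrix. They are 6 of the 83 genes that the study listed as lower in canine meningioma than in normal meninges, and 6 of the 24580 genes of the deposited table. Because the meningioma to control difference chose them, that difference is given below as a description and carries no test. What the choice did not use is the covariation of the genes within the meningiomas, which was tested.

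Libraries were made from meningioma biopsies, most of them intracranial, of 13 dogs of several breeds, and from the meninges of 3 healthy research beagles collected shortly after death. By the labels, 6 tumors were grade I (transitional or meningothelial) and 7 were grade II (atypical), and no allele or agent is named for any dog. The labels describe every tumor as formalin-fixed and paraffin-embedded, whereas the methods of the study name a pair of grade II cases from which frozen tissue was used. The control meninges were frozen and extracted with Trizol, and the fixed tumors were extracted with a kit for embedded tissue. Diagnosis and breed therefore moved with the groups, and so, apart from that pair of cases, did fixation and extraction. With the case behind each library not assigned here, their parts cannot be told apart. Ribosomal RNA was removed by hybridization and the libraries kept the strand of the RNA.

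The deposited table numbers the meningioma libraries 0 to 12 and the controls 0 to 2, and neither the labels nor the table name the case behind a number. No library was assigned to a case, so grade and fixation did not enter any comparison, and it was not examined whether a library that stood apart came from frozen tissue. Each sample is labelled as a separate case or control dog, and each library is 1 replicate of its group. Fragments counted on genes ranged from 2138741 to 7358925 in the meningiomas, and were 7054614, 2269204 and 4467660 in controls 0, 1 and 2. Meningioma libraries 2 and 12 stood apart, with scores of 70.3 and 67.5 on principal component 3 of 14686 genes, where the other 14 libraries lay between -34.9 and 14.9. Podoplanin (PDPN), a marker of arachnoid cells, had 44.6, 28.8 and 16.9 FPKM in controls 0, 1 and 2 and between 44.1 and 478.1 FPKM in the meningiomas, so it was present in every library.

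The extracellular matrix of the meninges is a collagen-rich sheet around the arachnoid, with basement membranes beneath the cells and around the many vessels that cross it. Collagens give the sheet its tensile frame, and glycoproteins such as fibulins and thrombospondins bind to that frame, to growth factors and to the integrins of neighbouring cells. In meninges these proteins are made by fibroblasts, by vascular cells and by arachnoid cells, the cells from which meningiomas are thought to arise.

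All 6 genes were lower in each of the 13 meningiomas than in each of the 3 controls, but none was absent from any tumor. Values are given as FPKM, fragments scaled by the length of the transcript and the size of the library, which allows levels of different genes to be compared. Log2 fold changes are those of edgeR on the fragments, with negative values where the meningiomas were lower. The median of the 6 log2 fold changes was -3.16, against 0.06 for the 14345 genes tested. In these bulk samples, fewer cells of a type and less RNA per cell cannot be told apart.

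**Figure D1:**
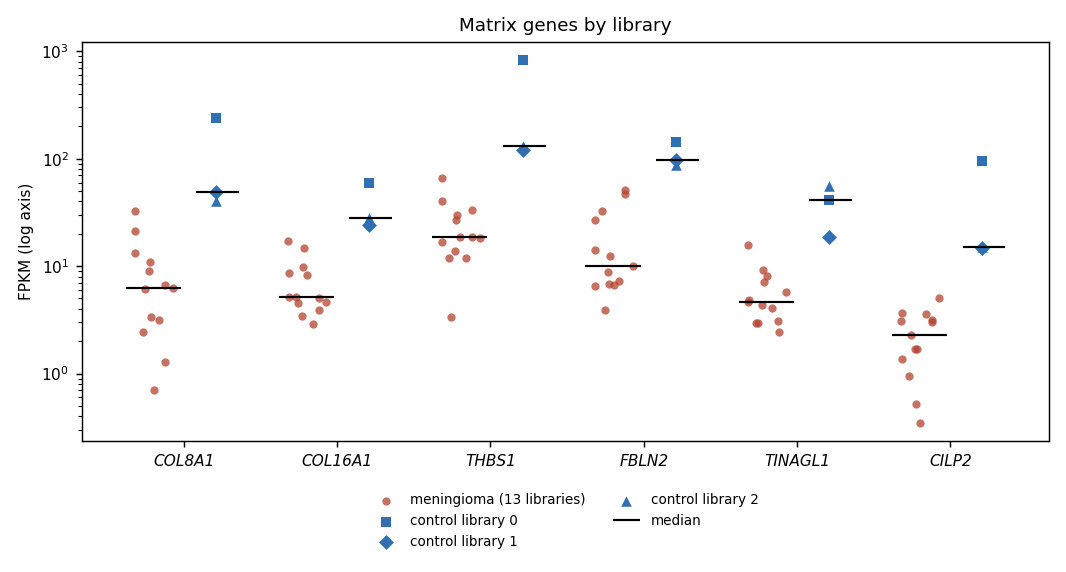
FPKM of the 6 matrix genes (log axis) in the 13 meningioma libraries (circles) and in control libraries 0 (square), 1 (diamond) and 2 (triangle), with horizontal lines at the group medians. The groups do not overlap for any gene, and control 0 lies far above the other controls for COL8A1, THBS1 and CILP2.

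COL8A1 (ENSCAFG00000031675) encodes a chain of type VIII collagen, a short-chain collagen that forms networks in vessel walls and under endothelia. It had 241.9, 49.4 and 40.8 FPKM in controls 0, 1 and 2, and a lowest, median and highest value of 0.697, 6.33 and 32.4 FPKM in the meningiomas. Control 0 was far above the other controls, and the highest meningioma, library 7, came close to the lowest control. The means were 110.7 ± 113.7 FPKM (SD, n = 3) and 9.0 ± 9.03 FPKM (SD, n = 13), and the log2 fold change was -3.61 (standard error 0.70). The range within the tumors was wide, 46.5-fold from the lowest to the highest. The lowest value, in library 2, rested on 7 fragments, with an exact Poisson interval of 2.81 to 14.4 fragments, and the other end of the range on far more, 290 fragments being the highest count. Here and elsewhere such intervals cover counting error only.

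COL16A1 (ENSCAFG00000010930) encodes type XVI collagen, a fibril-associated collagen that links fibrils to other matrix components and to integrins. Its level was 58.9, 24.2 and 28.1 FPKM in controls 0, 1 and 2. The meningiomas ranged from 2.87 to 17.1 FPKM with a median of 5.12 FPKM. Library 7 was again the highest of the tumors, library 12 was next with 14.8 FPKM, and the lowest control was 1.42-fold above library 7. With means of 37.1 ± 19.0 FPKM (SD, n = 3) in the controls and 7.16 ± 4.42 FPKM (SD, n = 13) in the meningiomas, the log2 fold change was -2.40 (standard error 0.41).

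THBS1 (ENSCAFG00000008704) encodes thrombospondin-1, a secreted glycoprotein that restrains the growth of vessels and activates latent TGF-beta. Controls 0, 1 and 2 had 831.7, 119.9 and 130.5 FPKM, and the meningiomas had a lowest, median and highest value of 3.36, 18.5 and 66.8 FPKM. Controls 1 and 2 were alike and control 0 was 6.37-fold above the higher of them. In the tumors library 7 was the highest and library 3 the lowest, 19.9-fold apart. The log2 fold change was -3.90 (standard error 0.55), from 360.7 ± 407.9 FPKM (SD, n = 3) in the controls to 23.8 ± 16.3 FPKM (SD, n = 13) in the meningiomas.

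FBLN2 (ENSCAFG00000004406) encodes fibulin-2, a calcium-binding glycoprotein of basement membranes and elastic fibers. The controls were the closest to each other of any of these genes, with 142.1, 97.5 and 86.7 FPKM. The meningiomas ranged from 3.92 to 51.1 FPKM with a median of 9.93 FPKM. FBLN2 was high in a different set of tumors from the collagens, with library 1 the highest, library 0 next at 47.3 FPKM and then library 11 at 32.8 FPKM. The mean was 108.8 ± 29.4 FPKM (SD, n = 3) in the controls and 18.0 ± 16.2 FPKM (SD, n = 13) in the meningiomas, a log2 fold change of -2.49 (standard error 0.59).

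TINAGL1 (ENSCAFG00000011002) encodes a basement membrane glycoprotein related to tubulointerstitial nephritis antigen that is made by smooth muscle around vessels. It was the gene for which control 0 was not the highest control, with 40.9, 18.6 and 55.8 FPKM in controls 0, 1 and 2. The meningiomas had a lowest, median and highest value of 2.44, 4.61 and 15.8 FPKM. The highest tumor, library 7, was nearer to the controls than for any other of the 6 genes, with the lowest control 1.18-fold above it. The log2 fold change was -2.72 (standard error 0.41), with means of 38.4 ± 18.7 FPKM (SD, n = 3) and 5.79 ± 3.65 FPKM (SD, n = 13).

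CILP2 (ENSCAFG00000023249) encodes cartilage intermediate layer protein 2, a secreted matrix protein best known from cartilage. It had 96.1, 14.7 and 14.9 FPKM in controls 0, 1 and 2, and the meningiomas ranged from 0.346 to 5.03 FPKM with a median of 2.30 FPKM. Controls 1 and 2 were nearly equal, and the gap between tumors and controls was the widest of the 6 genes, the lowest control being 2.92-fold above the highest tumor, library 9. Its log2 fold change of -4.11 (standard error 0.53) was the largest in size by edgeR with all 3 controls, though not by limma on log2(FPKM + 1) or without control 0, with means of 41.9 ± 46.9 FPKM (SD, n = 3) and 2.35 ± 1.39 FPKM (SD, n = 13). CILP2 also had the lowest minimum and the lowest maximum of fragments in the meningiomas, 5 and 84. Its median there was 40 fragments, against 39 for TINAGL1, and in the controls TINAGL1 had fewer (88 to 550) than CILP2 (140 to 2552).

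By edgeR, 6 of the 6 genes passed an adjusted p of 0.05 and were lower, where 3.55% of the genes tested did so. Without control 0 this number was 4 of 6 (not COL8A1 and FBLN2), and without control 1 or control 2 it was 5 of 6 (not FBLN2). Of all genes tested in these fits, 208 of 14156, 307 of 14237 and 157 of 14228 were called lower without controls 0, 1 and 2. Every meningioma lay below every control for 6 of 6 genes, where the share among all genes tested was 3.58%. This covers all 13 tumors, with the pair that the methods name as frozen among them, and the part of fixation was not tested. Since the members were taken from the list of lower genes, these counts describe the choice. The depth of the difference varied between tumors. CILP2 was at least 4-fold below the lowest control in 11 meningiomas, COL8A1, THBS1 and FBLN2 each in 9, COL16A1 in 8 and TINAGL1 in 7.

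**Figure D2:**
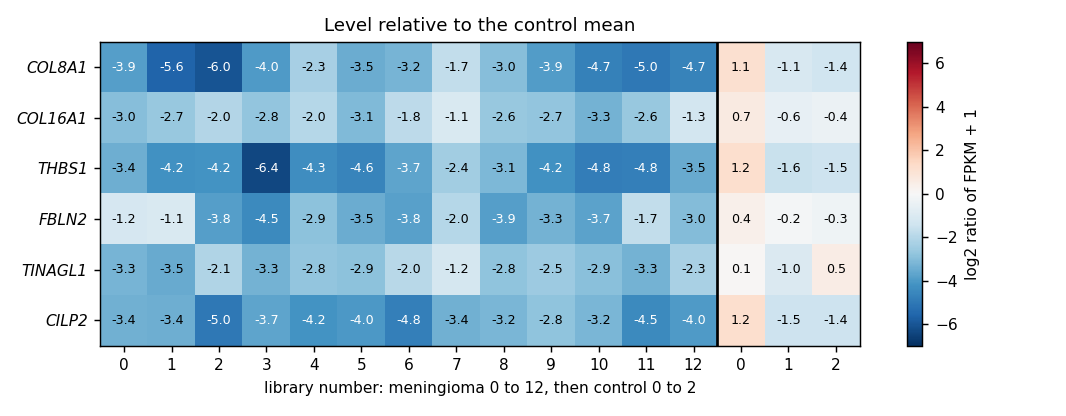
Log2 ratio of FPKM + 1 in each library to the mean of the 3 controls, for the 6 genes (rows) in meningioma libraries 0 to 12 and control libraries 0 to 2 (columns, separated by a line). Meningioma library 7 is the palest tumor column for 4 of the 6 genes. Control 0 is pale red for COL8A1, THBS1 and CILP2 and nearer to white for COL16A1, FBLN2 and TINAGL1.

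The order of the genes by mean level differed between the groups. In the meningiomas THBS1 stood first, followed by FBLN2, COL8A1, COL16A1, TINAGL1 and CILP2. Neighbours in this order overlapped, since THBS1 was above FBLN2 in 9 of 13 libraries and FBLN2 above COL8A1 in 7 of 13. COL8A1 exceeded COL16A1 in 9, COL16A1 exceeded TINAGL1 in 10 and TINAGL1 exceeded CILP2 in 11 of 13 libraries. In the controls, THBS1 was first in 3 of 3 libraries, and COL8A1 and FBLN2 came next with means of 110.7 and 108.8 FPKM that did not differ beyond their spread. CILP2, TINAGL1 and COL16A1, with means of 41.9, 38.4 and 37.1 FPKM, could not be ordered in the controls either. The ratio of THBS1 to COL8A1 lay between 2.43 and 3.44 in the 3 controls and between 0.552 and 26.7 in the 13 meningiomas.

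The spread between the control libraries was large for COL8A1, THBS1 and CILP2. On the log2 scale of normalized counts, the SD over the 3 controls was 1.40 for COL8A1, 1.57 for THBS1 and 1.53 for CILP2, against a median of 0.30 over all genes tested. It was 0.69 for COL16A1, 0.79 for TINAGL1 and 0.36 for FBLN2. Control 0 was at least 2-fold above both other controls for 4 of the 6 genes (COL8A1, COL16A1, THBS1 and CILP2), where this held for 3.01% of all genes tested. Control 0 was also the control with the most fragments. When it was left out, the median SD of the 6 genes dropped from 1.10 to 0.14, and that of all genes tested from 0.30 to 0.25. The other controls were therefore close to each other for most of these genes, with TINAGL1 the exception at 18.6 and 55.8 FPKM.

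The size of the fold change followed this library for 3 genes. Without control 0, the log2 fold change was -2.33 (standard error 0.78) for COL8A1, -2.39 (standard error 0.54) for THBS1 and -2.62 (standard error 0.54) for CILP2. The fold change with all controls was 2.43, 2.86 and 2.81 times as large for these genes. For COL16A1, FBLN2 and TINAGL1 the values without control 0 were -1.89, -2.25 and -2.68, changes in the fold of 1.43, 1.18 and 1.03 times. The fit with controls 1 and 2 alone placed the 6 genes between -1.89 and -2.68, a narrower range than the -2.40 to -4.11 of all controls. In that fit, each meningioma lay below each remaining control for 6 of 6 genes, and for 687 of the 14156 genes tested. The 6 genes were chosen by this contrast, so their count describes the choice.

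**Figure D3:**
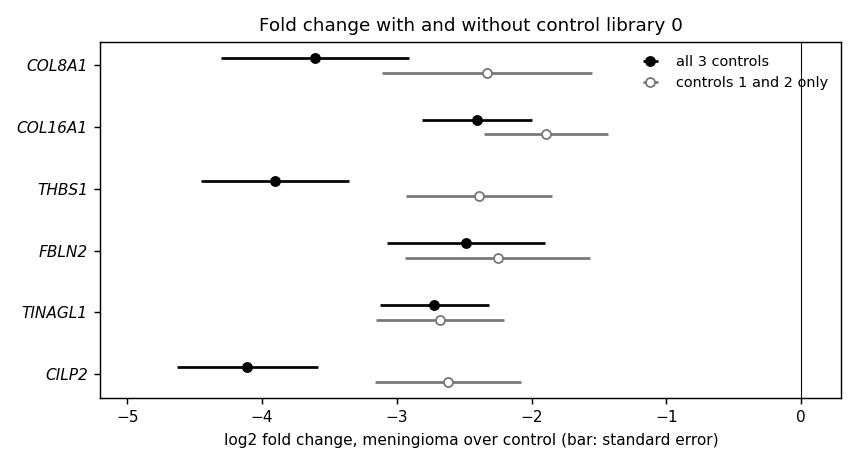
Log2 fold change of meningioma over control (x axis, with standard error as bars) for each gene with all 3 controls (filled) and with controls 1 and 2 only (open). COL8A1, THBS1 and CILP2 shift by more than 1 log2 unit, and TINAGL1 hardly moves.

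The genes also differed in their spread within the meningiomas. The coefficient of variation of FPKM over the 13 tumors was 100% for COL8A1, 89.8% for FBLN2, 68.3% for THBS1, 62.9% for TINAGL1, 61.7% for COL16A1 and 59.4% for CILP2. The relative counting error of a library, as a root mean square over the 13 tumors, lay between 6.46% for THBS1 and 22.0% for CILP2. It gives most weight to the tumors with the fewest fragments and is not a part of the coefficient of variation. On the log2 scale the SD was 1.49 for COL8A1, and 5.41% of all genes tested had an SD as large. The SDs of TINAGL1 and COL16A1, 0.74 and 0.76, were nearer to the median of 0.58 over all genes, and 34.8% and 32.6% of genes had an SD as large. Meningioma library 7 was the highest of the tumors for 4 of the 6 genes (COL8A1, COL16A1, THBS1 and TINAGL1), where it was the highest for 7.22% of all genes tested. It ranked 4 of 13 for FBLN2 and 5 of 13 for CILP2.

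Among the 15 pairs of these genes, COL16A1 and TINAGL1 varied together across the 13 meningiomas, and no other pair passed the correction for multiple tests. Correlations were computed on log2(FPKM + 1) with two-sided permutation tests. For COL16A1 and TINAGL1, Pearson's r was 0.79 (permutation p = 0.00148, Benjamini-Hochberg adjusted p = 0.0222 over 15 pairs). Spearman's rho was 0.69 (permutation p = 0.0124, adjusted p = 0.186), so the ranks alone did not pass. Without the libraries farthest from the median of COL16A1, r was 0.64 (permutation p = 0.0356, unadjusted). Leaving out each library in turn gave r between 0.67 and 0.82, with an adjusted p under 0.05 in 11 of 13 cases; the exceptions were the removal of library 6 (r = 0.77) and of library 7 (r = 0.67). TINAGL1 was the 35th of 14344 other tested genes by its r with COL16A1, and COL16A1 was the 21st by its r with TINAGL1. In the RefSeq annotation of UU_Cfam_GSD_1.0 both genes lie on chromosome 2 with 4 annotated genes between them, 2 of them protein-coding.

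The other pairs were weaker. THBS1 had r = 0.61 with TINAGL1 (permutation p = 0.0277, adjusted p = 0.207; rho = 0.55, permutation p = 0.0552, adjusted p = 0.276) and r = 0.56 with COL16A1 (permutation p = 0.0482, adjusted p = 0.241; rho = 0.60, permutation p = 0.0348, adjusted p = 0.261). Without the libraries farthest from the median on the x axis these values were 0.26 and 0.25, so both relations rested on those libraries. FBLN2 had r between -0.21 and 0.38 with the other members, and CILP2 between -0.35 and 0.24, over all 13 meningiomas. Without libraries 7 and 12, the farthest from the median of COL16A1, its r with CILP2 was -0.70 (permutation p = 0.0182, unadjusted). With each library left out in turn, that r lay between -0.57 and -0.27, and the pair passed in 0 of 13 cases. The 2 collagens had r = 0.32 with each other (permutation p = 0.292, adjusted p = 0.548; rho = 0.31, permutation p = 0.295, adjusted p = 0.633; r = 0.17 without the farthest libraries).

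**Figure D4:**
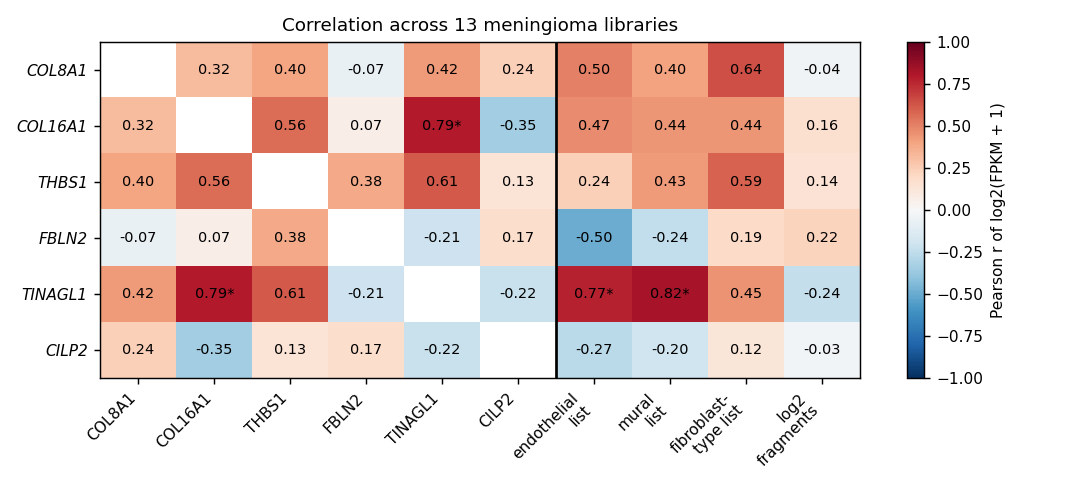
Pearson r of log2(FPKM + 1) across the 13 meningioma libraries between the 6 genes (left of the line) and between each gene and the mean of the endothelial, mural and fibroblast-type lists or log2 of the fragments counted (right of the line). Asterisks mark the 3 relations with an adjusted p under 0.05, all of which involve TINAGL1.

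Markers of other cell types also differed between the groups, and these values stand beside each difference given above. Of 12 endothelial genes (among them PECAM1, TIE1 and TEK), 12 were called lower in the meningiomas, and their summed level was 48.9 to 209.9 FPKM in the tumors against 677.0, 517.7 and 839.8 FPKM in controls 0, 1 and 2. Of 6 mural genes, markers of smooth muscle and pericytes such as MCAM, MYH11 and NOTCH3, 6 were called lower, with sums of 14.5 to 54.4 FPKM against 327.0, 131.0 and 284.8 FPKM. Of 6 fibroblast-type genes 3 were called lower, with sums of 161.4 to 496.6 FPKM against 1008, 1359 and 2042 FPKM. None of these 24 genes was at 0 in a meningioma. The study had picked all of them on these libraries, so their direction is no independent evidence. The part of cell makeup in the lower levels of the 6 matrix genes was not tested.

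Across the meningiomas, TINAGL1 followed the vascular lists. Of 24 relations between a matrix gene and a list or the depth, 2 passed the correction for multiple tests. TINAGL1 had r = 0.82 with the mean of the mural list (permutation p = 7.70e-04, adjusted p = 0.0185; rho = 0.68, permutation p = 0.0131, adjusted p = 0.157) and r = 0.77 with that of the endothelial list (permutation p = 0.00206, adjusted p = 0.0247; rho = 0.70, permutation p = 0.00893, adjusted p = 0.157). Without the libraries farthest from the median of the list, r was 0.59 for the mural list (permutation p = 0.0568, unadjusted) and 0.48 for the endothelial list (permutation p = 0.134, unadjusted), so both relations rested in part on those libraries. Without libraries 2 and 12, which stood apart on component 3, r was 0.95 and 0.85, and both passed. In that setting r with the fibroblast-type list was 0.74 for TINAGL1, 0.75 for COL16A1, 0.70 for THBS1 and 0.52 for COL8A1. It was 0.08 for FBLN2 and -0.22 for CILP2. With the mural list r was 0.72 for COL16A1, 0.66 for COL8A1 and 0.56 for THBS1, and -0.20 and -0.08 for FBLN2 and CILP2. None of these other relations passed (lowest adjusted permutation p = 0.0504). Leaving out each library in turn kept the mural relation of TINAGL1 under 0.05 in 10 of 13 cases, the exceptions being libraries 1, 6 and 7 (r = 0.79, 0.80 and 0.68). For the endothelial relation of TINAGL1 this number was 8 of 13, and r was lowest, 0.65, without library 7.

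**Figure D5:**
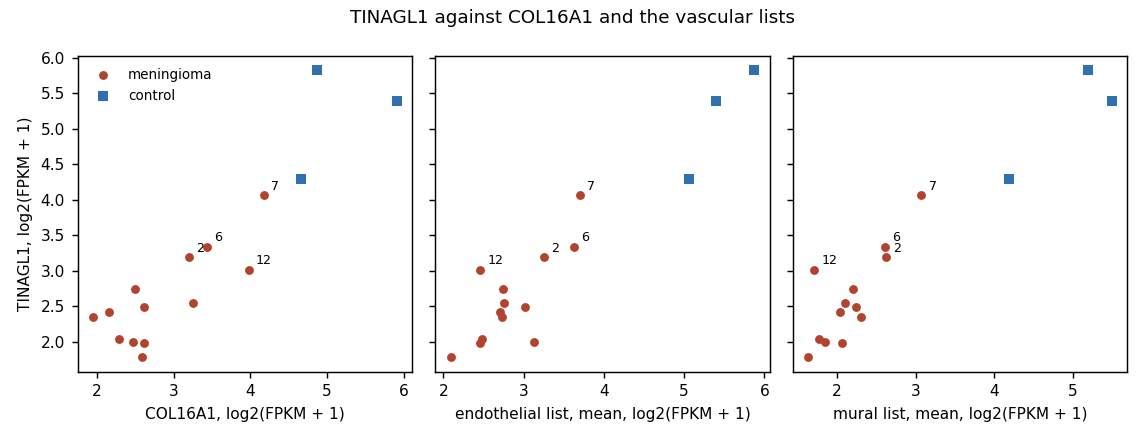
TINAGL1 (y axis) against COL16A1, the mean of the 12 endothelial genes and the mean of the 6 mural genes (x axes), all as log2(FPKM + 1), in 13 meningiomas (circles) and 3 controls (squares, not used for r). Numbers mark meningioma libraries 2, 6, 7 and 12, and library 7 lies at the upper end of the tumors in each panel.

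On log2(FPKM + 1) with all 13 meningiomas, no other matrix gene passed with a list. COL8A1 had r = 0.64 with the fibroblast-type list (permutation p = 0.0172, adjusted p = 0.138; rho = 0.53, permutation p = 0.0663, adjusted p = 0.318) and r = 0.23 without the farthest libraries. THBS1 had r = 0.59 with this list (permutation p = 0.0357, adjusted p = 0.214). Its rho was 0.56 (permutation p = 0.0492, adjusted p = 0.295), and r was 0.50 without the farthest libraries. The fibroblast-type list holds COL14A1, a fibril-associated collagen, FMOD and CCDC80, which are also among the other matrix genes below. FBLN2 had r = -0.50 with the endothelial list (permutation p = 0.0840, adjusted p = 0.310; rho = -0.60, permutation p = 0.0324, adjusted p = 0.259), the opposite sign to TINAGL1. Without libraries 6 and 7, the farthest from the median of the list, this r was -0.85 (permutation p = 9.70e-04, unadjusted). The r with the depth of the library lay between -0.24 and 0.22 for the 6 genes. Without libraries 2 and 12, r with the endothelial list was 0.74 for COL8A1, 0.69 for COL16A1 and 0.31 for THBS1. It was -0.49 for FBLN2 and -0.21 for CILP2, and none of these passed (lowest adjusted permutation p = 0.0504). Without library 2 alone, COL8A1 passed with the endothelial list (r = 0.75, adjusted permutation p = 0.0479). Without library 4 alone, COL8A1 passed with the fibroblast-type list (r = 0.78, adjusted permutation p = 0.0269). On log2 normalized counts, COL8A1 passed with the fibroblast-type list (r = 0.73, adjusted permutation p = 0.0434).

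The listed genes with the most similar pattern also differed from gene to gene. For each member, these are taken from the 3 with the highest Pearson r over the 13 meningiomas among the 118 other genes of the lists that pair symbols with identifiers, and as the highest of many they carry no test. TINAGL1 was closest to PECAM1, an endothelial adhesion molecule (r = 0.84), MCAM, a surface molecule of vascular cells (r = 0.77), and the smooth muscle actin listed as ACTC (r = 0.74). COL8A1 was closest to PRKD1, a serine/threonine kinase (r = 0.82), PALD1 (r = 0.79) and COL14A1 (r = 0.72). For COL16A1 they were CACNA2D2, a calcium channel subunit (r = 0.74), PDGFRL (r = 0.67) and FLT1, a VEGF receptor (r = 0.64).

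For FBLN2 the closest genes were FMN2, an actin-nucleating formin (r = 0.79), CHGA, a protein of secretory granules (r = 0.69), and CCDC80, a secreted matrix protein (r = 0.68). CILP2 was closest to PAMR1 (r = 0.80) and the transcription factor MYRF (r = 0.74). THBS1 had no listed gene above r = 0.54, which was reached by GAS6, a ligand of TAM receptor kinases, and by the adhesion receptor GPR133, with ALP next at r = 0.53. No gene named here was among the closest 3 of more than 1 member.

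The lists of the study hold 13 other matrix genes, which were also chosen by it on these libraries. All came from its list of lower genes except COMP, which it listed as higher. Of the 13, 10 were called lower in the meningiomas and 0 higher, and 9 had every meningioma below every control. Among all genes tested, 3.55% were called lower and 3.58% had every meningioma below every control. Since the direction came with the lists, these counts describe the choice. The median log2 fold change of the 13 genes was -2.64. Of the 5 structural genes, COL14A1 (-4.13), MMRN2, an endothelial matrix protein (-3.80), LAMC3, a laminin chain (-2.91), and FMOD, a proteoglycan that binds collagen fibrils (-2.21), were called lower. COMP, a pentameric glycoprotein of the thrombospondin family, had a positive log2 fold change of 2.31 (standard error 0.93) and did not pass. It was above every control in 10 of 13 tumors, with 54.8, 10.4 and 7.46 FPKM in controls 0, 1 and 2 and a median of 73.4 FPKM in the meningiomas.

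Of the 5 secreted genes, MYOC (-5.23), ADAMTSL1 (-3.71), CRISPLD2 (-2.69) and OLFML3 (-2.64) were called lower, and CCDC80 (-1.76) did not pass. In collagen biosynthesis and matrix processing, the collagen prolyl 3-hydroxylase LEPREL2 (-2.01) and the chaperone RCN3 (-2.03) were called lower, and the procollagen protease TLL1 (-2.39) did not pass. Control 0 was at least 2-fold above both other controls for 3 of the 13 genes, COMP, MYOC and CCDC80. Control 0 was the highest control for 4 of 13 of these genes and for 5 of the 6 members, a difference that was not tested.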

How the data were processed

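Total RNA of 13 meningiomas and 3 normal meninges was sequenced from strand-specific, ribosome-depleted libraries. Per the labels' processing notes, cutadapt 1.8, TopHat2 2.0.13 and Cuffdiff 2.2.1 were used with canFam3. The table deposited by the authors holds estimated counts of fragments per gene, a scaled signal that the authors made by dividing these by a size factor, and FPKM computed by the authors per transcript length. Counts were not whole in 0.347% of values and were rounded. The 14345 genes that reached 10 fragments in 3 or more libraries were fitted by edgeR 4.0.16 (quasi-likelihood test, R 4.3.3, TMM, Benjamini-Hochberg adjustment). A prior count of 2 was used only for log2 normalized counts, an alternative setting of the correlations. The scripts were tested on simulated data. Standard errors of edgeR fold changes were derived as the size of the log2 fold change over the square root of the test's F statistic. SDs on the log2 scale used TMM-normalized CPM + 0.5. Correlations used log2(FPKM + 1), 100000 resamples and scipy 1.17.1. Alternatives were DESeq2 1.42.0, limma 3.58.1, other size factors, no filter and libraries left out.

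The 6 members, the gene lists and the rule for named genes (members, 13 other matrix genes, the 3 closest listed genes per member, marker genes) were chosen with earlier results of these data known. Symbols were taken from the lists of the study, which pair them with identifiers. A wider matrix list was not analysed here, and 1 gene that the rule names is not reported here. The RefSeq table of UU_Cfam_GSD_1.0 held 5 of the 6 members by symbol and, being of another build, was used for gene order only.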

Additional observations from a re-analysis of the deposited data

How the results depend on the processing

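edgeR called 697 genes (509 lower, 188 higher), DESeq2 called 1372 (756 lower, 616 higher), and leaving out each library gave 169 to 931, with 245, 350 and 169 without controls 0, 1 and 2. The log2 fold changes of the 6 genes kept their sign under every alternative. Leaving out each library gave -4.32 to -2.39 for THBS1, -4.51 to -2.62 for CILP2 and -4.01 to -2.33 for COL8A1, the smaller size in each case without control 0. The 6 genes passed an adjusted p of 0.05 in edgeR under each other scaling and without each meningioma. Without control 0, 4 passed (not COL8A1 and FBLN2), and without control 1 or control 2, 5 passed (not FBLN2). Among all genes tested, 208 of 14156, 307 of 14237 and 157 of 14228 were called lower without controls 0, 1 and 2. The 6 genes were chosen by this contrast, so these counts describe the choice and are no test of them. DESeq2 gave no adjusted p for THBS1 and CILP2, and the other 4 passed. Each meningioma lay below each control for 6 of 6 genes in every edgeR fit. Among all genes tested, this held for between 503 of 20554 (no filter) and 847 of 14237 (without control 1). The median SD of the 6 genes over the controls was 1.10, and 0.14 to 1.29 with each control left out.

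Of 15 pairs, 1 passed, with 0 by Spearman's rho (2 at an unadjusted permutation p under 0.05), 2 without libraries 2 and 12 (COL8A1 with TINAGL1, r = 0.76, in addition), and 0 to 1 with each library left out. Of 24 relations with lists or depth, 2 passed, with 0 by Spearman's rho and 0 on log2(FPKM + 0.1). Log2 normalized counts gave 3 (COL8A1 with the fibroblast-type list in addition), and leaving out each library gave 0 to 3. The fits of all genes without libraries 2 and 12 were chosen after seeing the data. No paired analysis was possible because the columns number the libraries within their group and the numbers of meningiomas and controls mark different dogs. The depth limits the lowest values, such as 5 fragments for CILP2, and 3 controls limit the fold changes.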

Other observations

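Among the other matrix genes, the controls differed most for MYOC, which encodes myocilin, a secreted protein known from the eye, with 1042, 50.4 and 186.7 FPKM in controls 0, 1 and 2. The meningiomas had a median of 3.31 FPKM and a highest value of 71.0 FPKM, in library 12, which was above control 1. In contrast, CRISPLD2 had 74.0, 75.1 and 89.0 FPKM in the controls and LEPREL2 had 43.2, 40.8 and 48.8 FPKM, so the high values of control 0 did not extend to these secreted and biosynthetic genes.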
